A study of Mus musculus with 10 samples.

Results

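The 10 genes described here encode subunits of heterotrimeric G proteins, the membrane switches through which dopamine, adenosine, acetylcholine and peptide receptors act on striatal neurons. They were taken by symbol from the gene rows of the count files and are Gnal, Gnas, Gnao1, Gnai1, Gnai2, Gnaq, Gnb1, Gnb5, Gng7 and Gng3. All 10 were found among the 32531 gene rows, and all 10 passed the filter on low counts that left 14680 genes for testing.

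The study sequenced RNA bound to tagged ribosomes (translating ribosome affinity purification, TRAP-seq) from the whole striatum of adult mice in short-access intravenous self-administration. All mice were Drd1-TRAP CP73, an FVB/N-Swiss Webster x C57BL/6 background with at least 9 generations on C57BL/6. In this line the Drd1 promoter drives EGFP fused to the ribosomal protein Rpl10a, so the tag marks cells that use the dopamine D1 receptor promoter and not a single anatomical subregion. There were 3 pull-downs from mice under cocaine self-administration, 3 from yoked control mice, 3 from mice under saline self-administration, and 1 input library of total striatal RNA. The transgene was shared by all groups. The labels used here do not give the ages, the infusion that yoked mice received, or whether each library is a separate animal. The p-values below therefore speak only to the spread among these 9 libraries, and that spread may be technical.

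A heterotrimeric G protein holds an alpha subunit, which binds GDP at rest and GTP once a receptor activates it, and a beta-gamma dimer that is released to act on its own targets. The alpha subunit sets the pathway: Gs and Golf stimulate adenylyl cyclase, Gi and Go inhibit it or act largely through beta-gamma, and Gq activates phospholipase C beta. In the striatum the D1 receptor and the adenosine receptor encoded by Adora2a signal chiefly through Golf, the product of Gnal, which takes the place that Gs holds in most other tissues. In mouse striatum Golf is found with the gamma subunit made from Gng7 and stimulates adenylyl cyclase 5, and loss of Gng7 lowers the amount of Golf protein.

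Pull-downs held 12528806 to 45242175 gene counts and the input 40519976, with saline 2 the shallowest. Lane 1 held cocaine, lane 2 yoked, lane 3 saline and lane 5 the input library, and group cannot be told apart from lane. Between 10.5% and 20.5% of counts in a pull-down belonged to the ribosomal RNA row Rn45s, the most in cocaine 3, beside 12.5% in the input. The D1 label was checked against marker genes: all 8 D1 neuron markers were above the input with a median of 2.35-fold, and 0 of 6 D2 neuron markers were above it, with a median of 0.220. Median ratios were 0.161 for astrocyte, 0.140 for oligodendrocyte, 0.171 for microglial, 0.255 for interneuron and 0.247 for vascular markers. Of the 7 interneuron markers 1 went the other way: Gad2 was above the input in all 9 pull-downs, by 1.22-fold on average. Of 7 listed markers of cortical glutamatergic neurons, 6 had at least 5 CPM (counts per 1e+06 counts in genes) in the pull-downs or the input. These 6 were above the input on average, with a median of 2.03-fold. The same floor was used for every marker list. Tbr1, Neurod6 and Neurod2 reached 5 CPM only in the pull-downs, which favours a ratio above 1. Emx1, under that floor, was at 0.837 of an input of 13 counts, and 8 of 9 pull-downs were below the input. Replicates stood apart in single libraries: yoked 3 was the lowest or the highest of the 9 pull-downs for 6 of the 10 subunit genes, and cocaine 3 for 4. The share of all tested genes with such extremes was not counted, so this cannot be read as particular to the subunit genes. Not only members differed: over genes at large, chi-square over degrees of freedom was 114 and 157 between yoked 3 and its replicates. It was 24.8 between yoked 1 and yoked 2.

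On the RefSeq annotation of GRCm38.p6, the patch series of the mm10 build, Gnal lies on chromosome 18 at 67088298 to 67226792, Gnas on chromosome 2 at 174284320 to 174346744, and Gnao1 on chromosome 8 at 93810153 to 93969388. Gnai1 lies on chromosome 5 at 18265135 to 18360413, Gnai2 on chromosome 9 at 107614125 to 107635391, and Gnaq on chromosome 19 at 16132684 to 16388520. Among the beta and gamma genes, Gnb1 lies on chromosome 4 at 155491300 to 155559269, Gnb5 on chromosome 9 at 75306288 to 75345923, Gng7 on chromosome 10 at 80948624 to 81014925, and Gng3 on chromosome 19 at 8836929 to 8839246. The counts sum reads over whole genes. Transcript lengths were not used here, so levels are compared between libraries for 1 gene at a time and not between genes, and ratios of 2 genes are compared only between libraries. Some loci overlap other count rows, and the strand setting of the counting is not given in the sources used here. Gng3 overlaps Bscl2, whose row had 30.7 CPM on average over pull-downs and 22.2 CPM in the input. Gnal overlaps Chmp1b, at 22.6 CPM in the pull-downs and 32.3 CPM in the input.

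The pull-downs were first set against the input, which asks how much of each subunit's RNA the tagged cells' ribosomes carried relative to striatal RNA as a whole. Gng3, Gnb5 and Gnai1 were higher in all 9 pull-downs, by 1.88-fold, 1.83-fold and 1.61-fold on average, and Gnas was lower in all 9, at 0.332 of the input. Gnal itself was close to the input, at 1.10-fold. Malat1, a nuclear RNA, took 0.0114% to 0.0387% of the counts in a pull-down and 3.801% in the input. With 1 input library there is no test of these ratios, and the SD given is over the 9 pull-downs only. Ratios were taken after adding 0.5 CPM to both sides, and fewer tagged cells cannot be told apart from less RNA per cell. The rule for counting a gene was a mean of at least 1.5-fold with all 9 pull-downs on that side: 3 of the 10 subunit genes met it above the input, where 22.1% of 10974 genes did, and 1 of 10 met it below, where 22.8% did. The members' median ratio was 1.09-fold with 6 of 10 above 1, beside 1.04-fold and 52.6% over all 10974 genes. By these counts the subunit genes as a list lay near the background, and the departures were those of single genes.

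**Figure D1:**
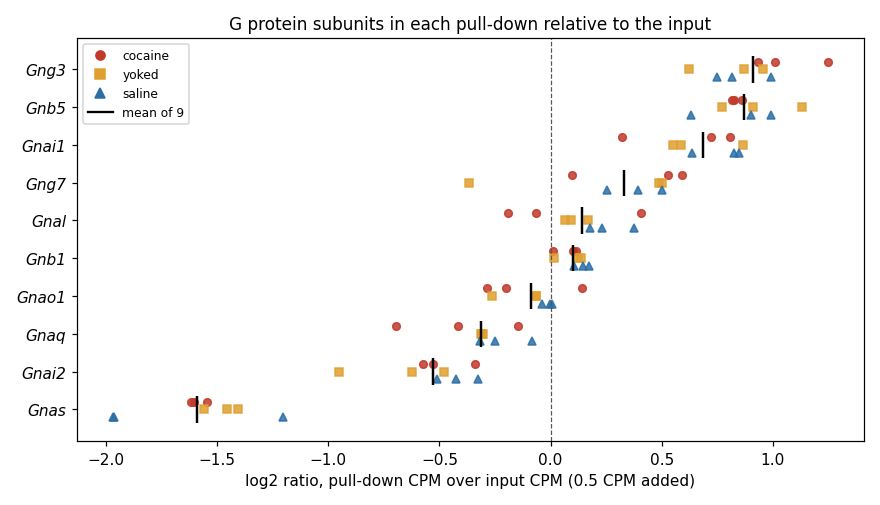
Each point is 1 pull-down, placed by the log2 ratio of its CPM to the input CPM (0.5 CPM added to both) on the horizontal axis, with 1 row per subunit gene and the mean of the 9 pull-downs as a black bar. Gng3, Gnb5, Gnai1 and Gnb1 lie wholly to the right of 0, Gnaq, Gnai2 and Gnas lie wholly to the left, with Gnas furthest at a mean of -1.59, and Gng7 has 1 of its 9 pull-downs, yoked 3, to the left.

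The stimulatory alpha subunits stood furthest apart. Gnal, which encodes the alpha subunit of Golf, had 2699, 1944 and 1779.7 CPM in the cocaine pull-downs, 2284, 2166 and 2129 in the yoked pull-downs and 2642, 2304 and 2389.9 in the saline pull-downs, against 2036 CPM in the input. Of the 9 pull-downs 7 were above the input and 2, cocaine 2 and cocaine 3, were below it, over a range of 0.874 to 1.33-fold. Gnas, which encodes the alpha subunit of Gs, had 171, 172 and 179.7 CPM in the cocaine pull-downs, 198, 178 and 191 in the yoked pull-downs and 134, 228 and 134 in the saline pull-downs, against 525 CPM in the input (95% Clopper-Pearson interval 518 to 532, counting error only). Every pull-down was below the input, the nearest being saline 2. The mean of 176 ± 29.5 CPM (SD, n = 9) was 3.01-fold lower than the input, with a range of 0.255 to 0.434.

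Because both genes are counted in the same library, their ratio does not depend on how libraries are scaled. The ratio of Gnal to Gnas reads was 15.8, 11.3 and 9.90 in the cocaine pull-downs, 11.6, 12.2 and 11.1 in the yoked pull-downs and 19.7, 10.1 and 17.8 in the saline pull-downs, against 3.87 in the input. All 9 pull-downs were above the input, and their geometric mean of 12.9 was 3.33-fold higher. The saline group held both the highest ratio and 1 of the 2 lowest, and saline 2 was the pull-down with the high Gnas level. The summed level of the 8 astrocyte markers, all 8 detected, was 327, 271 and 142 CPM in the cocaine pull-downs, 355, 821 and 154 in the yoked pull-downs and 259, 463 and 156 in the saline pull-downs, against 2167 CPM in the input. Saline 2 had the highest astrocyte sum of its group, whereas yoked 2 had the highest of all 9 and a Gnas level of 178 CPM, and the part of other cells in the Gnas values was not tested.

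The Gnas row joins several transcription starts, which is why its promoter windows are shown: the locus is known for alternative first exons, among them those of the proteins Nesp55 and XLas, beside that of the Gs alpha subunit. RefSeq's promoter table (GRCm38.p6, 250 bases before to 50 after a start) held 4 windows for Gnas, all on the + strand, and the most upstream and the most downstream are printed. Capitals mark matches, on either strand, to a shortened cAMP response element (CRE core) spelled TGACG, to the TATA box spelled TATAAA, to the box named after its letters CCAAT, and to the GC box spelled GGGCGG.
Gnas, chr2:174284070-174284369 (+): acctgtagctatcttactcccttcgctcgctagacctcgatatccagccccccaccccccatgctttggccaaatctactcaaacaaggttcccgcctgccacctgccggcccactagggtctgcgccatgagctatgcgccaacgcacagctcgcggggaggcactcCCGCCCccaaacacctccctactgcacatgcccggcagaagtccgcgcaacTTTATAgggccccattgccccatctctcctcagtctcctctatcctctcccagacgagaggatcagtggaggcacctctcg
Gnas, chr2:174329756-174330055 (+): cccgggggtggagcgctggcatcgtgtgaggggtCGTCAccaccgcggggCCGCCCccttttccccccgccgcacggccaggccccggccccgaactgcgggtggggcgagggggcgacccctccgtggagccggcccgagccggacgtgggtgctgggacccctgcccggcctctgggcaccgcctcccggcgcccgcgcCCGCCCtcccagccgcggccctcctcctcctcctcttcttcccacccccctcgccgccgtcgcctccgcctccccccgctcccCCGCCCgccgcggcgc
The upstream window had 61.0% G or C, a TATA match at -31 bases from the start and 1 GC box. The downstream window had 81.7% G or C, 1 CRE core, 3 GC boxes and no TATA match. Since 1 row sums all starts, the counts do not say which of them the lower ribosome-bound level belongs to. If the annotation used for counting held overlapping features such as the antisense gene Gnasas1, reads shared with them would have been set aside as ambiguous, so the Gnas row may hold only some of the locus's reads.

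The inhibitory and Go class of alpha subunits went different ways. Gnai1, an inhibitory alpha subunit, had 324, 345 and 246 CPM in the cocaine pull-downs, 295, 288 and 358 in the yoked pull-downs and 305, 354 and 349 in the saline pull-downs, against 197 CPM in the input. It was above the input in 9 of 9 pull-downs, with the lowest value in cocaine 3. Gnai2, the inhibitory alpha subunit found across most cell types and abundant in microglia, had 72.2, 82.5 and 69.9 CPM in the cocaine pull-downs, 67.6, 74.8 and 53.8 in the yoked pull-downs and 73.2, 83.2 and 77.8 in the saline pull-downs, against 104 CPM in the input. It was below the input in 9 of 9 pull-downs, at 0.693 of it on average (0.518 to 0.798), and the lowest was yoked 3. Gnao1, the abundant neuronal alpha subunit of Go, averaged 1846 ± 178 CPM over the pull-downs (SD, n = 9), against 1953 CPM in the input. Its ratio of 0.942 had 2 pull-downs above and 7 below, and on scaling by TMM over all 10 libraries, which moved the median of all genes by 0.20 on the log2 scale, its mean log2 ratio turned from -0.09 to 0.12. The other 9 subunits kept the direction of their mean ratio under that scaling. Gnal was then at a mean log2 ratio of 0.34 and Gnas at -1.39. Counts of pull-downs above or below the input are given without that scaling. Gnal in cocaine 2 and cocaine 3 had log2 ratios of -0.07 and -0.19. Gnaq in cocaine 1 and saline 2 had log2 ratios of -0.15 and -0.08. These values lay within the 0.20 shift, so their side of the input depends on the scaling.

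Gnaq, the alpha subunit that couples metabotropic glutamate and M1 muscarinic receptors to phospholipase C beta, averaged 269 ± 30.9 CPM over the pull-downs (SD, n = 9), against 333 CPM in the input. Without TMM scaling all 9 pull-downs were below the input, by little in saline 2 and most in cocaine 3, over 0.617 to 0.943.

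Of the beta subunits, the divergent one stood higher above the input. Gnb1, the general beta subunit of most heterotrimers, averaged 1324 ± 50.5 CPM over the pull-downs (SD, n = 9), against 1233 CPM in the input, a ratio of 1.07 with all 9 above and a range of 1.01 to 1.13. Gnb5, the divergent beta subunit that pairs with R7 RGS proteins (regulators that speed GTP hydrolysis by alpha subunits) in place of a gamma subunit, had 315, 308 and 305 CPM in the cocaine pull-downs, 326, 296 and 379.9 in the yoked pull-downs and 345, 324 and 269 in the saline pull-downs, against 173 CPM in the input. All 9 pull-downs lay above the input, the highest in yoked 3 and the lowest in saline 3. The ratio of Gnb5 to Gnb1 reads was 0.237, 0.233 and 0.246 in the cocaine pull-downs, 0.243, 0.237 and 0.281 in the yoked pull-downs and 0.253, 0.233 and 0.203 in the saline pull-downs, against 0.141 in the input, so that 9 of 9 pull-downs were above it and their geometric mean was 1.71-fold higher.

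Both gamma subunits were higher in the pull-downs on average. Gng3, a gamma subunit made almost wholly in neurons, had 594, 699 and 563 CPM in the cocaine pull-downs, 571, 538 and 453 in the yoked pull-downs and 519, 586 and 496 in the saline pull-downs, against 294 CPM in the input (95% Clopper-Pearson interval 289 to 299.7, counting error only). Each of the 9 pull-downs was above the input, by 1.54 to 2.37-fold, and the largest value was in cocaine 2. Gng7, the partner of Golf, had 2593, 2710.5 and 1922 CPM in the cocaine pull-downs, 2550.1, 2520.2 and 1394 in the yoked pull-downs and 2552, 2361 and 2147 in the saline pull-downs, against 1800.3 CPM in the input. It was above the input in 8 of 9 pull-downs and below it in yoked 3. The mean ratio was 1.26 over all 9, and the mean log2 ratio of 0.33 was 0.42 without yoked 3. The ratio of Gng7 to Gng3 reads was 4.37, 3.88 and 3.42 in the cocaine pull-downs, 4.46, 4.69 and 3.08 in the yoked pull-downs and 4.92, 4.03 and 4.33 in the saline pull-downs, against 6.12 in the input. All 9 pull-downs were below the input, at a geometric mean of 4.09.

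The Gng7 row, whose yoked libraries fell on both sides of the input, also joins more than 1 start, and its RefSeq windows (GRCm38.p6) are printed with the same motifs in capitals.
Gng7, chr10:81014876-81015175 (-): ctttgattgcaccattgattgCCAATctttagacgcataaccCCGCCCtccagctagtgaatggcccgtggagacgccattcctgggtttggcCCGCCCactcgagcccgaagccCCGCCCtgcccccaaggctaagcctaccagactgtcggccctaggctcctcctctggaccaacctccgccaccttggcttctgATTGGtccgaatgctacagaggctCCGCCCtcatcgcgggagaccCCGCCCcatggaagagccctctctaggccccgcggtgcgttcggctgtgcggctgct
Gng7, chr10:81001316-81001615 (-): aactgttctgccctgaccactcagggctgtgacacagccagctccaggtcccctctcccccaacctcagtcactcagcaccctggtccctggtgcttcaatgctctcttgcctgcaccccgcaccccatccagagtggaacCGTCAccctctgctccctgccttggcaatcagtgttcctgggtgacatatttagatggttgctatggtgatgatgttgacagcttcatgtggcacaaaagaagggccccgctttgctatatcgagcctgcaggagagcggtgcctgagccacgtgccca
The upstream window had 63.7% G or C with 5 GC boxes and 2 CCAAT matches, and the other, inside the gene, had 58.0% G or C with 1 CRE core. Over the 12 windows found for 8 of the 10 genes, 5 held a CRE core, beside 20.8% of all 32851 windows in the table, and 0 held the full CRE, TGACGTCA, beside 1.79%. A GC box stood in 6 of 12 windows, beside 35.7%, a TATA match in 4, beside 13.6%, and a CCAAT match in 4, beside 37.4%. The CRE core is part of the full CRE, and 2 of the Gnas windows overlap each other, so the 12 windows are not independent. The median G or C content was 64.3% in the members' windows and 52.7% in all windows. These matches describe letters only.

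**Figure D2:**
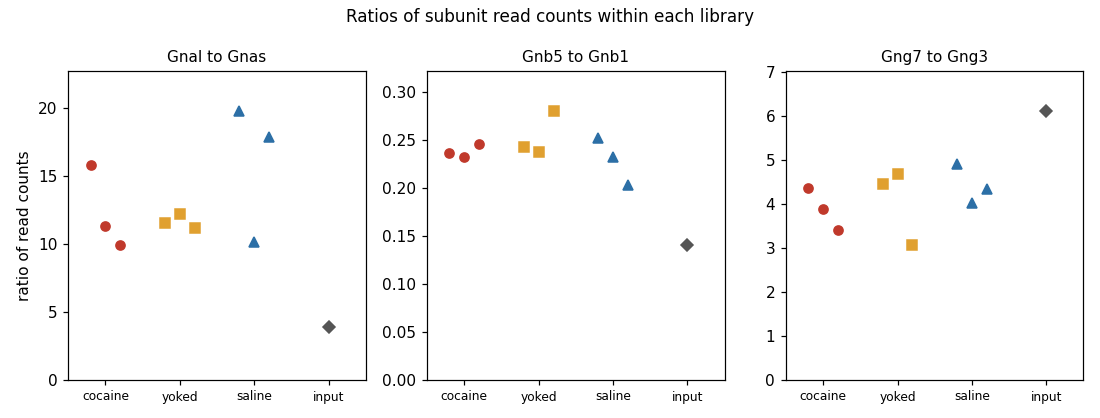
Ratios of the read counts of 2 subunit genes within each library (vertical axes, linear and starting at 0), by group: cocaine, yoked and saline pull-downs (3 points each) and the single input. Gnal to Gnas and Gnb5 to Gnb1 were above the input in all 9 pull-downs, and Gng7 to Gng3 was below it in all 9.

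Cocaine, yoked and saline pull-downs were then set against each other, which asks whether the subunit RNA on tagged ribosomes differed with cocaine taking, with yoked exposure, or between them. None of the 10 subunit genes passed the test in any comparison. The largest differences among the members were those of Gng3, about 1.2-fold higher in cocaine than in saline or yoked pull-downs. With edgeR and p-values adjusted by Benjamini-Hochberg over 14680 genes, cocaine against saline had 0 genes called (0.0%), cocaine against yoked had 0 (0.0%), and yoked against saline had 0 (0.0%), with 0 members in each. The adjusted p-values of the members in edgeR were 0.999 in cocaine against saline, 0.974 to 0.998 in cocaine against yoked, and 0.999 in yoked against saline. An unadjusted p under 0.05 was reached by 417 genes (2.84%) in the first of these comparisons, 379 (2.58%) in the second and 270 (1.84%) in the third, and by 0 members in each. In the same order, DESeq2 called 1, 0 and 0 genes and limma-voom 0, 0 and 0, none of them a member. With the replicate number as a block, 1 gene was called in each comparison, none of them a member. Against the same-numbered saline library, yoked was lower in 3 of 3 pairs for Gnal, Gnao1 and Gnai2, and the other 7 members were mixed. Pairs were counted for this comparison only, and rest on the numbers in the sample titles. The share of all genes on one side in 3 of 3 pairs was not counted, so nothing about the members is read from it.

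**Figure D3:**
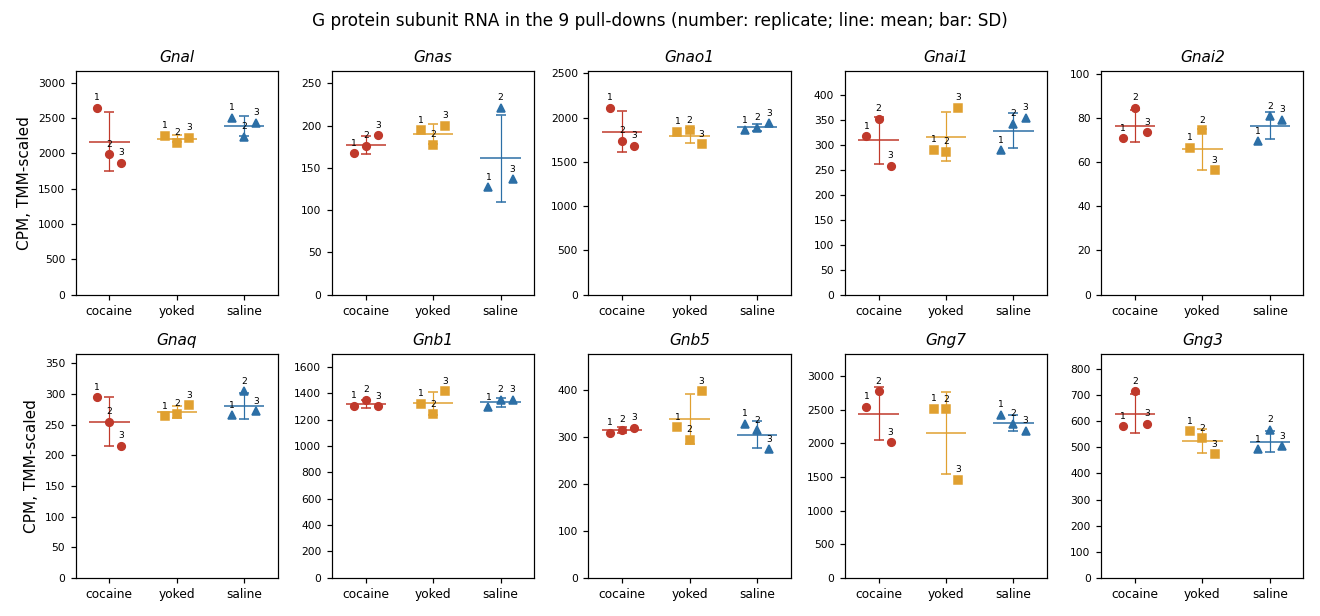
TMM-scaled CPM of each subunit gene (vertical axes, linear and starting at 0) in every pull-down, by group, with the replicate number beside each point, the group mean as a line and the SD as a bar (n = 3). The groups overlap for all 10 genes apart from Gng3, where the 3 cocaine pull-downs, at 581 to 715, lie above the 3 yoked and the 3 saline ones.

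Levels below are TMM-scaled CPM, with means ± SD over the 3 libraries of a group and log2 fold changes ± SE from edgeR. Gng3 had 581, 715 and 590.0 CPM in the cocaine pull-downs, 562, 535 and 473 in the yoked pull-downs and 492, 567 and 504 in the saline pull-downs. On this scale the 3 cocaine pull-downs lay above every yoked and saline pull-down, with yoked 3 the lowest of all. By CPM without TMM scaling the groups overlapped, with cocaine 3 at 563, below yoked 1 at 571 and saline 2 at 586. Means were 629 ± 74.9 in cocaine, 523 ± 45.5 in yoked and 521 ± 40.5 in saline pull-downs (SD, n = 3 each). The log2 fold change was 0.27 ± 0.13 in cocaine against saline (95% interval -0.02 to 0.56, edgeR adjusted p = 0.999) and 0.27 ± 0.13 in cocaine against yoked (95% interval -0.02 to 0.55, edgeR adjusted p = 0.974). These comparisons share the cocaine libraries, and yoked and saline pull-downs were nearly level, at 0.0054 ± 0.13. Of the 10 members 1 was thus apart and above in cocaine against saline, where 6.38% of all tested genes were, and 1 in cocaine against yoked, where 3.42% were. Members apart and below numbered 0 in both, beside 5.08% in cocaine against saline and 3.33% in cocaine against yoked. In yoked against saline 0 members were apart above, beside 3.3%, and 0 below, beside 3.39%. The estimate was positive in each of the 9 fits that left out 1 library, at 0.17 to 0.34 in cocaine against saline and 0.16 to 0.32 in cocaine against yoked, the lowest of both without cocaine 2.

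Among the stimulatory subunits, Gnal had 2642, 1988 and 1867 CPM in the cocaine pull-downs, 2247, 2154 and 2224 in the yoked pull-downs and 2506, 2233 and 2432 in the saline pull-downs. Cocaine 1 was the highest of all 9 and cocaine 3 the lowest, so the cocaine group spanned the other groups. Group means were 2166 ± 417 in cocaine, 2208 ± 48.4 in yoked and 2390 ± 141 in saline pull-downs (SD, n = 3 each), with a log2 fold change of -0.14 ± 0.14 in cocaine against saline. With 1 library left out that estimate ran from -0.31 without cocaine 1 to -0.05 without cocaine 3, and none of these fits gave a call after adjustment. Gnas had 167, 176 and 188 CPM in the cocaine pull-downs, 194, 177 and 199.98 in the yoked pull-downs and 127, 221 and 136 in the saline pull-downs. Saline 2 was the highest and saline 1 the lowest of all 9, and the saline group spanned both other groups. Means were 177 ± 10.7 in cocaine, 191 ± 11.9 in yoked and 161 ± 51.7 in saline pull-downs (SD, n = 3 each). The log2 fold change was 0.14 ± 0.18 in cocaine against saline, -0.10 ± 0.18 in cocaine against yoked and 0.24 ± 0.18 in yoked against saline. Without saline 2, the shallowest library, the estimates became 0.43 in cocaine against saline and 0.53 in yoked against saline. The unadjusted edgeR p-values of these 2 estimates were 0.011 and 0.0030. Neither passed edgeR's test after Benjamini-Hochberg adjustment, and the saline group then held 2 libraries. The oligodendrocyte marker sum, all 8 of 8 markers detected, was 498, 447 and 239 CPM in the cocaine pull-downs, 515, 1030.2 and 203 in the yoked pull-downs and 412, 667 and 249 in the saline pull-downs, highest within saline in saline 2, and its part in the Gnas values was not tested.

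The inhibitory and Go class of alpha subunits, and Gnaq, overlapped between groups throughout. Gnai1 averaged 309 ± 47.7 in cocaine, 317 ± 49.6 in yoked and 329 ± 34.7 in saline pull-downs (SD, n = 3 each). Gnai2 had 70.7, 84.4 and 73.4 CPM in the cocaine pull-downs, 66.5, 74.4 and 56.2 in the yoked pull-downs and 69.4, 80.7 and 79.1 in the saline pull-downs. Its lowest values were in yoked 3 and yoked 1, and yoked 2 lay among the other groups, giving 0.21 ± 0.14 in cocaine against yoked and -0.22 ± 0.14 in yoked against saline. Without yoked 3 these were 0.11 and -0.12. Gnao1 averaged 1841 ± 233 in cocaine, 1797 ± 87.8 in yoked and 1893 ± 39.4 in saline pull-downs (SD, n = 3 each). Gnaq had 295, 255 and 216 CPM in the cocaine pull-downs, 264, 267 and 282 in the yoked pull-downs and 265, 304 and 272 in the saline pull-downs. The cocaine libraries reached both lower and higher than all 3 yoked ones, with the lowest value in cocaine 3, and the log2 fold change was -0.14 ± 0.14 in cocaine against saline and -0.03 without cocaine 3.

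Gnb1 had the lowest coefficient of variation over the 9 pull-downs together, with means of 1319 ± 28.6 in cocaine, 1325 ± 87.5 in yoked and 1330.4 ± 31.1 in saline pull-downs (SD, n = 3 each). Its 95% interval was -0.26 to 0.24 on the log2 scale in cocaine against saline, -0.26 to 0.24 in cocaine against yoked and -0.26 to 0.24 in yoked against saline. Gnb5 had 309, 315 and 319.8 CPM in the cocaine pull-downs, 321, 294 and 397 in the yoked pull-downs and 327, 314 and 274 in the saline pull-downs. The highest value was in yoked 3 and the lowest in saline 3, and the cocaine libraries lay inside the range of the yoked ones. Group means were 314 ± 5.50 in cocaine, 337 ± 53.3 in yoked and 305 ± 27.9 in saline pull-downs (SD, n = 3 each).

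Gng7 had 2539, 2772 and 2016 CPM in the cocaine pull-downs, 2509, 2506 and 1455 in the yoked pull-downs and 2420.1, 2289 and 2185 in the saline pull-downs. Yoked 3 was the lowest and cocaine 3 and saline 3 were the next lowest, while yoked 1 and yoked 2 lay among the cocaine libraries. Means were 2442 ± 387 in cocaine, 2157 ± 607 in yoked and 2298 ± 118 in saline pull-downs (SD, n = 3 each). On the log2 scale the fold change was 0.09 ± 0.19 in cocaine against saline, 0.18 ± 0.19 in cocaine against yoked and -0.09 ± 0.19 in yoked against saline. Without yoked 3 the last 2 turned to -0.04 and 0.13, so the direction of both rested on 1 library. Yoked 3 had the highest D1 marker sum of the 9 pull-downs, 3388 CPM beside 2282 to 2979 CPM in the others with 8 of 8 markers detected, and the lowest oligodendrocyte sum, 203 CPM. It was also the lowest for Gnai2 and Gng3 and the highest for Gnai1, Gnb1 and Gnb5. The part of depth or tissue in that library was not tested.

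**Figure D4:**
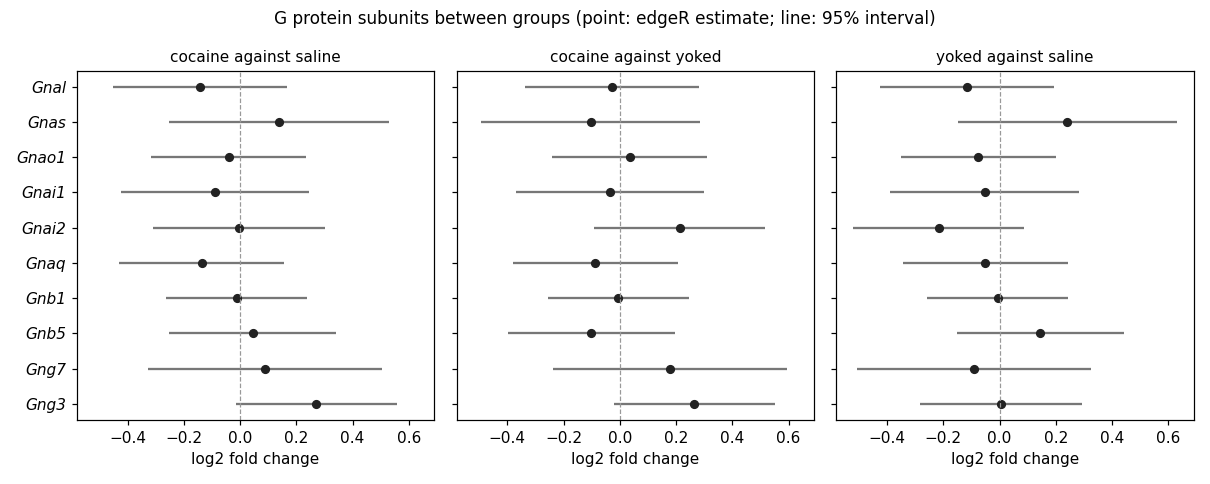
Log2 fold change of each subunit gene (points, edgeR estimates) with its 95% interval (lines) in 3 panels, cocaine against saline, then cocaine against yoked, then yoked against saline, with 3 libraries per group. Every interval includes 0, and those of Gng3 in the comparisons with cocaine reach down only to -0.02.

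In order of group means, 4 genes (Gnal, Gnai1, Gnaq and Gnb1) ran lowest in cocaine, then yoked, then saline, and Gnas and Gnb5 ran lowest in saline, then cocaine, then yoked. Gnao1 and Gnai2 were lowest in yoked and highest in saline, Gng7 was lowest in yoked and highest in cocaine, and Gng3 was lowest in saline and highest in cocaine. Neighbours in each order overlapped in their single libraries, except that cocaine stood apart for Gng3 on the TMM scale. In cocaine against saline 4 members were higher and 6 lower with a median log2 fold change of -0.0082, beside 0.0036 over all genes tested. In cocaine against yoked 4 were higher and 6 lower with a median of -0.02, beside -0.03, and in yoked against saline 3 were higher and 7 lower with a median of -0.05, beside 0.03. Of all genes tested 50.6%, 45.5% and 55.0% were higher in the same order. Over the 10 genes the 95% intervals stayed within -0.45 to 0.56 in cocaine against saline, -0.49 to 0.60 in cocaine against yoked, and -0.52 to 0.63 in yoked against saline, on the log2 scale. Those are the outermost ends over 10 genes, and single genes had narrower intervals.

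The balance of subunits within a library was tested between groups by exact permutation, two-sided, where 3 libraries against 3 cannot give a p below 0.1. For Gnal to Gnas the mean log2 ratio was 3.60 ± 0.35 in cocaine, 3.54 ± 0.06 in yoked and 3.93 ± 0.52 in saline pull-downs (SD, n = 3 each). Its difference was -0.34 in cocaine against saline (exact permutation p = 0.3) and -0.40 in yoked against saline (exact permutation p = 0.4), with saline 2 inside the range of the other groups. For Gng7 to Gng3 the difference was -0.19 in cocaine against saline (exact permutation p = 0.3), and for Gnb5 to Gnb1 it was 0.15 in yoked against saline (exact permutation p = 0.4). Over the 9 comparisons of 3 ratios the exact permutation p-values were 0.3 to 0.9 and, with Benjamini-Hochberg adjustment, 0.72 to 0.9.

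Across the 9 pull-downs the coefficient of variation was 3.69% for Gnb1, 7.19% for Gnao1, 9.48% for Gnaq, 10.5% for Gnb5 and 10.8% for Gnal. It was 11.6% for Gnai2, 12.4% for Gnai1, 12.9% for Gng3, 16.8% for Gng7 and 16.9% for Gnas. The median over 5064 genes with a mean of at least 1000 counts was 13.0%, and 8 of the 10 members were below it. The extremes of Gnas were saline 1 and saline 2, and those of Gng7 were yoked 3 and cocaine 2. Among 11050 genes, those whose level followed Gnal most closely over the 9 pull-downs were Tlk2 (Pearson r = 0.955), Kif5c (0.952) and Tmod2 (0.950), and those most like Gng7 were Fbxl16 (0.975), Sh2b1 (0.973) and Fam102a (0.973). Leaving out 1 library at a time gave 0.925 to 0.978 for Tlk2 with Gnal and 0.901 to 0.987 for Fbxl16 with Gng7. These points share libraries, depth and scaling, and are a description only.

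Of the remaining heterotrimeric G protein subunit genes, 23 were listed and 14 passed the filter on low counts. The 9 others, among them the photoreceptor subunits, reached at most 0.574 CPM in any pull-down. None of the 14 was called in any comparison. In cocaine against saline 10 were higher and 4 lower with a median log2 fold change of 0.09, in cocaine against yoked 6 and 8 with -0.08, and in yoked against saline 8 and 6 with 0.11. Over all genes tested 50.6%, 45.5% and 55.0% were higher in the same order, with medians of 0.0036, -0.03 and 0.03. Gnai3, the third inhibitory alpha subunit, was -0.30 ± 0.14 in cocaine against yoked and 0.30 ± 0.14 in yoked against saline. It was the 1 gene of this list with an unadjusted p under 0.05, in both comparisons, and the yoked libraries enter both. In cocaine against yoked 1 of the 14 was apart and above, Gnaz, beside 3.42% of all genes, and 1 apart and below, Gnai3, beside 3.33%. In yoked against saline Gnai3 was the 1 apart and above, beside 3.3%, and Gnaz the 1 apart and below, beside 3.39%. In cocaine against saline 0 were apart above, beside 6.38%, and 0 below, beside 5.08%. Gnaz, an inhibitory alpha subunit that resists pertussis toxin, was 0.28 ± 0.14 in cocaine against yoked and 0.14 without yoked 3. In yoked against saline Gnaz was -0.20 ± 0.14, and -0.06 without yoked 3. There its nearest libraries were yoked 2 at 91.3 and saline 3 at 91.5 TMM-scaled CPM. Without TMM scaling the yoked and saline groups overlapped for Gnaz. The medians of this list in the comparisons with yoked changed sign when 1 library was left out, running from -0.13 to 0.09 (without yoked 3) in cocaine against yoked and from -0.05 (without saline 3) to 0.20 in yoked against saline. Those in cocaine against saline ran from 0.05 without saline 1 to 0.14 without saline 2.

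**Figure D5:**
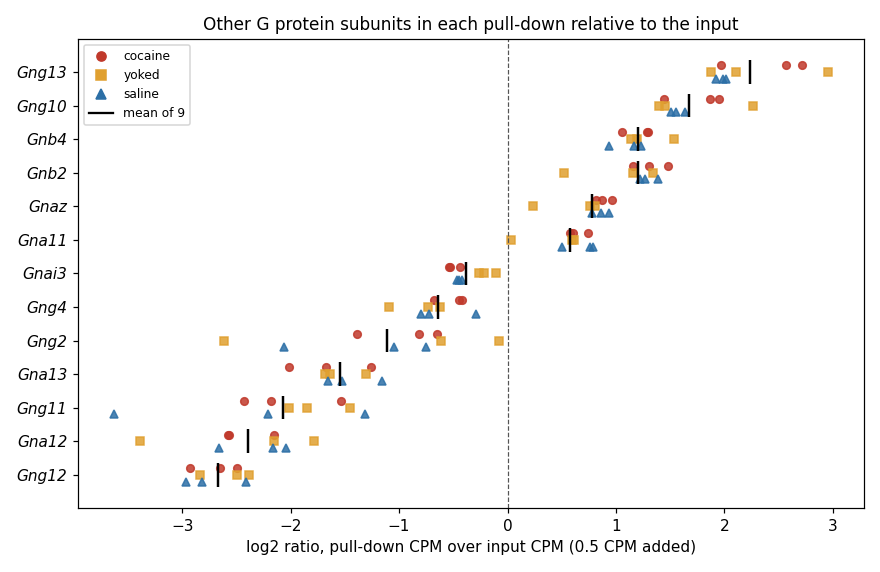
Each point is 1 pull-down, placed by the log2 ratio of its CPM to the input CPM (0.5 CPM added to both), for the 13 other subunit genes with at least 5 CPM in the pull-downs or the input, with the mean of the 9 as a black bar. Gng13, Gng10, Gnb4, Gnb2, Gnaz and Gna11 lie right of 0, and the other 7 lie left of it in all 9 pull-downs.

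Against the input these genes ran from 0.157 to 4.71, beside 0.332 to 1.88 for the members. Of 13 with at least 5 CPM in the pull-downs or the input, 5 met the 1.5-fold rule above it, where 22.1% of all genes did, and 6 below, where 22.8% did. Gng13 reached 5 CPM only in the pull-downs, at 11.1 against 1.88 in the input. Gng11 reached it only in the input, at 5.70 against 1.11 in the pull-downs. Passing on 1 side only favours meeting the rule on that side, here and in the shares of all genes. Gnb2, the beta subunit found with Golf in striatum, averaged 94.0 ± 15.6 CPM over the pull-downs (SD, n = 9), against 39.9 CPM in the input, 2.30-fold higher. Gnb4, another beta subunit, was 2.31-fold higher, Gng10, a broadly used gamma subunit, 3.19-fold higher and Gnaz 1.72-fold higher. Gng13, a gamma subunit known from taste cells, was 4.71-fold higher over an input of 76 counts. On the other side, the alpha subunit genes Gna12 and Gna13 were at 0.191 and 0.343 of the input, and the gamma subunits Gng12, Gng11 and Gng4 at 0.157, 0.238 and 0.640. Gng2, a widely used gamma subunit, was at 0.462 on average but ranged over 0.163 to 0.946, the lowest in yoked 2. Gna11, the close relative of Gnaq, was at 1.49-fold, beside 0.804 for Gnaq. Median ratios to the input were 0.768 for this list and 1.09-fold for the 10 members, in a background whose median was 1.04-fold.

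Proteins that fold, load or receive these subunits were counted as 3 further lists, and none of their genes was called in any comparison. Of 16 chaperones, exchange and accessory factors 15 had a row and 12 were tested, with 6 higher and 6 lower in cocaine against saline. Ric8b, the chaperone of Gs and Golf alpha subunits, was -0.02 ± 0.13 in that comparison and at 1.01 of the input, and Rgs7bp, which holds R7 RGS and Gnb5 complexes at the membrane, was -0.20 ± 0.15 and at 0.775 of the input. Ccdc88a, an exchange factor for inhibitory alpha subunits, was at 0.598 of the input and Cct2, a subunit of the chaperonin that folds beta subunits, at 1.40-fold. All 19 effectors were tested, with 4 higher and 15 lower in cocaine against saline and a median log2 fold change of -0.16, beside 50.6% higher and a median of 0.0036 over all genes tested. That median ran from -0.29 without cocaine 1 to -0.06 without saline 3, and was -0.07 without cocaine 2. Adcy5, the adenylyl cyclase that Golf stimulates in striatum, was -0.26 ± 0.16 in cocaine against saline and at 1.14 of the input. Of its 9 pull-downs 7 were above the input and 2 below. Adcy1, a calcium-stimulated cyclase, was -0.36 ± 0.16, the 1 effector with an unadjusted p under 0.05 in that comparison, and at 0.470 of the input, Plcb1, a target of Gq, was -0.07 ± 0.14 and at 1.59-fold, and Arhgef12, an effector of G12 and G13, was -0.20 ± 0.15 and at 0.796.

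All 20 receptors listed were tested, with 5 higher and 15 lower in cocaine against saline (median -0.15), 5 and 15 in cocaine against yoked (median -0.19), and 9 and 11 in yoked against saline (median -0.04). The medians over all genes tested were 0.0036, -0.03 and 0.03, and 50.6%, 45.5% and 55.0% of all genes were higher. With 1 library left out the receptor median ran from -0.22 (without saline 2) to -0.06 (without saline 3) in cocaine against saline and from -0.26 to -0.02 (without yoked 2) in cocaine against yoked. In yoked against saline it ran from -0.17 (without yoked 2) to 0.05 (without yoked 1). Drd1, the D1 receptor that signals through Golf, was -0.01 ± 0.18 in cocaine against saline and 2.07-fold above the input in the pull-downs. Cnr1, the cannabinoid receptor that couples to Gi and Go, was -0.41 ± 0.26 in that comparison and at 0.587 of the input, and Grm5, a glutamate receptor that couples to Gq, was -0.15 ± 0.18 and at 0.876, a log2 ratio of -0.19 that is smaller than the 0.20 shift between scalings.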

How the data were processed

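The authors deposited raw read counts for each gene symbol. The submitters' processing notes name STAR 2.0.0e, HTSeq and mm10. Annotation, strandedness and counting mode were not given in the sources used here. Each file held 32531 gene rows and 6 rows naming no gene, which enter neither library sizes nor tests. Of uniquely aligned reads, 12.3% to 16.1% of a pull-down and 27.6% of the input fell in no feature, and 2.54% to 3.03% of a pull-down and 6.63% of the input were ambiguous. The floor of 3 counts is 0.0663 to 0.239 CPM in a pull-down. Intervals and floors reflect counting error alone.

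Groups were compared by edgeR 4.0.16 (R 4.3.3) on the 9 pull-downs, with TMM scaling, filterByExpr, robust quasi-likelihood F tests and no term but group. Calls required p under 0.05 after Benjamini-Hochberg adjustment over all genes tested. The common biological coefficient of variation was 23.7%. No pair of replicates agreed within sampling noise (chi-square over degrees of freedom was 14.4 to 157), and each library counts once. DESeq2 1.42.0, limma-voom (limma 3.58.1), other scaling and filters, a replicate block, and leaving out Rn45s or 1 library were alternatives. The script was checked on simulated counts. Same-numbered libraries of yoked and saline deviated together (correlations 0.119, 0.274 and 0.294 over 11895 genes). The correlations were 0.0581, 0.32 and 0.356 in cocaine against saline, and -0.065, 0.138 and 0.256 in cocaine against yoked. Each of these comparisons with cocaine thus had a pair below 0.1, beside higher ones. The numbers come from the sample titles.

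The 10 members and all lists were chosen with earlier results of these data known. The rule for naming genes takes all 10 members, the 8 other subunits and the 4 genes of each further list with the highest mean CPM where none was called, and the 3 genes most correlated with Gnal and with Gng7. Genes named beyond it (Gng4, Gng11, Gng12, Gng13 and Gna12) were chosen after their values were seen, and 1 gene that the rule takes is not reported here. Promoter windows are from RefSeq (GRCm38.p6).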

Additional observations from a re-analysis of the deposited data

Results flagged for a closer look

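One value lay apart from its set by Dixon's criterion. The log2 ratio of Gnai2 to the input was -0.95 in yoked 3, below the other 8 pull-downs, which ran from -0.62 to -0.33. Of 13 sets of 9 pull-downs examined 1 was flagged, and chance flags about 1 in 20. Groups of 3 are too small for this criterion.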

How the results depend on the processing

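No member was called under any alternative, and the lowest adjusted p of a member was 0.741, by edgeR. Of 30 member fold changes, 18 changed sign when some library was left out, and each of those was at most 0.18 from 0 in the fit of all 9. With 1 library left out, the log2 fold change in cocaine against saline ran over -0.0031 to 0.43 for Gnas, -0.15 to 0.018 for Gnao1, -0.19 to 0.022 for Gnai1, -0.083 to 0.047 for Gnai2, -0.027 to 0.10 for Gnb5 and -0.011 to 0.20 for Gng7. With 1 library left out, the log2 fold change in cocaine against yoked ran over -0.20 to 0.064 for Gnal, -0.075 to 0.093 for Gnao1, -0.14 to 0.10 for Gnai1, -0.20 to 0.017 for Gnaq, -0.047 to 0.045 for Gnb1, -0.18 to 0.034 for Gnb5 and -0.036 to 0.30 for Gng7. With 1 library left out, the log2 fold change in yoked against saline ran over -0.19 to 0.0082 for Gnai1, -0.087 to 0.012 for Gnaq, -0.055 to 0.031 for Gnb1, -0.22 to 0.13 for Gng7 and -0.048 to 0.073 for Gng3. The log2 difference of the ratios ran over -0.14 to 0.20 for Gnal to Gnas in cocaine against yoked, -0.025 to 0.13 for Gnb5 to Gnb1 in cocaine against saline, -0.24 to 0.062 for Gng7 to Gng3 in cocaine against yoked and -0.25 to 0.052 for Gng7 to Gng3 in yoked against saline. Of 210 values under the other settings 4 reversed: Gnb1 in cocaine against yoked was 0.0052 without Rn45s and 0.0036 with the 2 groups compared only, Gnb1 in yoked against saline was 0.0044 with no filter, and Gng3 in yoked against saline was -0.0085 without Rn45s. The cause was not tested. Genes called went to 1 with DESeq2 and with the 2 groups only in cocaine against saline, and to 1 in each comparison with the replicate block. Every same-numbered pair correlated above 0.1 in yoked against saline only, and cocaine against saline had 0.0581, 0.32 and 0.356. Over fits without 1 library, called genes ran from 0 to 1 in cocaine against saline and in yoked against saline, the 1 without yoked 3. TMM over the 10 libraries moved 8 of 10 input ratios by more than their SD, and the members past 1.5-fold stayed 3 above and 1 below. The precision is limited by 3 libraries a group, 1 input and the 12528806 counts of saline 2.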
